A study of Arabidopsis thaliana with 30 samples.

Results

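Open chromatin of rdd-2 shoots was compared with that of Col-0 shoots of Arabidopsis thaliana, using 2 peak lists of each, 4 of the 30 libraries of the study. The rdd-2 plants lack ROS1, DML2 and DML3. Col-0 is the wild type. Shoots were collected at 2 weeks of age from plants kept at 22 °C with 16 h light and 8 h dark. The labels name neither the alleles combined in rdd-2 nor the number of plants behind a library, so the spread between replicates may be technical. The other 26 libraries, also 2 per group, are shoots of 11 further mutant genotypes, Col-0 root of 2 weeks and Col-0 stem of 4 weeks. They served only to define sites and as libraries that the comparison did not use. The rdd-2 and drdd libraries were registered under later sample numbers than all the rest, Col-0 included. Whether they were also prepared apart is not stated. Among them ros1-4 lacks ROS1 alone, drdd lacks DME as well as ROS1, DML2 and DML3, met1-9 lacks the methyltransferase MET1, and gcn5, hda6, nrpd1-3 and sdg2-4 were each profiled with and without ros1-4.

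Plants remove 5-methylcytosine with DNA glycosylases that cut out the methylated base, after which repair puts back an unmethylated cytosine. ROS1 is the main such enzyme of vegetative tissue, DML2 and DML3 are its close relatives, and DME is best known from the central cell of the female gametophyte. ROS1 is known to counter RNA-directed DNA methylation at transposons near genes, where methylation can spread. ATAC-seq reads accessibility from the insertion of Tn5 transposase into open DNA. The question was which sites had a peak in Col-0 shoots and not in rdd-2 shoots, and which the reverse.

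A site is a window of 301 bp around a peak summit. It is called lost when both Col-0 lists and neither rdd-2 list hold a peak in it, and gained in the reverse case. The value given for a peak is the authors' fold, the ratio of fragment pileup at the summit to local background, on a linear scale. It describes and ranks peaks within a list and is no measure of change between lists. With 2 libraries against 2 an exact two-sided permutation test cannot give a p below 0.33, so no site was tested. At a lost site the groups do not overlap by construction.

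The Col-0 lists held 20477 and 21873 peaks and the rdd-2 lists 21588 and 23532. Read depth is not stated in them. The most common background level of each library was read back from fold and p-value. It was 6.60 and 8.48 fragments in Col-0 and 9.42 and 14.8 in rdd-2, so by this measure the rdd-2 lists were deeper. The lowest fold called at that level was 2.355 and 2.11 in Col-0 against 2.11 and 1.84 in rdd-2. The Col-0 lists shared 81.7% of the sites that either held, the rdd-2 lists 84.4%, and pairs across genotypes 77.2% to 81.0%. All 19 photosynthesis genes used as shoot markers had a peak in each of the 4 lists. Of 18 root marker genes, 5 and 8 had one in Col-0, 9 and 9 in rdd-2, and 15 and 15 in Col-0 root.

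A small part of the accessible sites differed. Of 21808 sites open in both Col-0 lists, 479 had no peak in rdd-2, which is 2.2% of them. Of 24163 sites open in both rdd-2 lists, 1317 had no peak in Col-0, or 5.45%. Over the 30190 sites with a peak in at least 1 of the 4 lists these are 1.59% lost and 4.36% gained, and 20427 sites carried a peak in all 4. Leaving out 1 library leaves 1 list to stand for its group. The lost and gained counts were then 1200 and 2010 without Col-0 replicate 1, 830 and 3043 without Col-0 replicate 2, 612 and 3035 without rdd-2 replicate 1, and 1248 and 1770 without rdd-2 replicate 2. With all lists shortened to 20477 peaks, 728 sites were lost and 941 gained, so the excess of gained sites is smaller when list length is equal.

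Most changed sites were weak. The lower fold of the 2 carrying libraries had a median of 3.16 at lost sites against 4.75 at all Col-0 sites, and of 2.77 at gained sites against 4.43 at all rdd-2 sites. Of Col-0 sites with a lower fold under 3, 196 of 2444 were lost, or 8.02%. From 8 to 12, 11 of 2299 were lost, or 0.479%, and none of the 305 sites at 12 or more, for which the exact 95% upper bound is 1.202%. Gains were also fewer at stronger sites, from 20.4% of rdd-2 sites under 3 to between 0.485% and 0.776% in the bins from 5 upward. There were 299 gained sites, 22.7% of them, with a lower fold under 2.355, the level that a peak at background needed in Col-0 replicate 1. For lost sites the same count against the rdd-2 limit of 2.11 was 8, or 1.67%. Depth, by the background level, was higher in rdd-2, and its part in the number of weak gained sites was not tested.

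**Figure D1:**
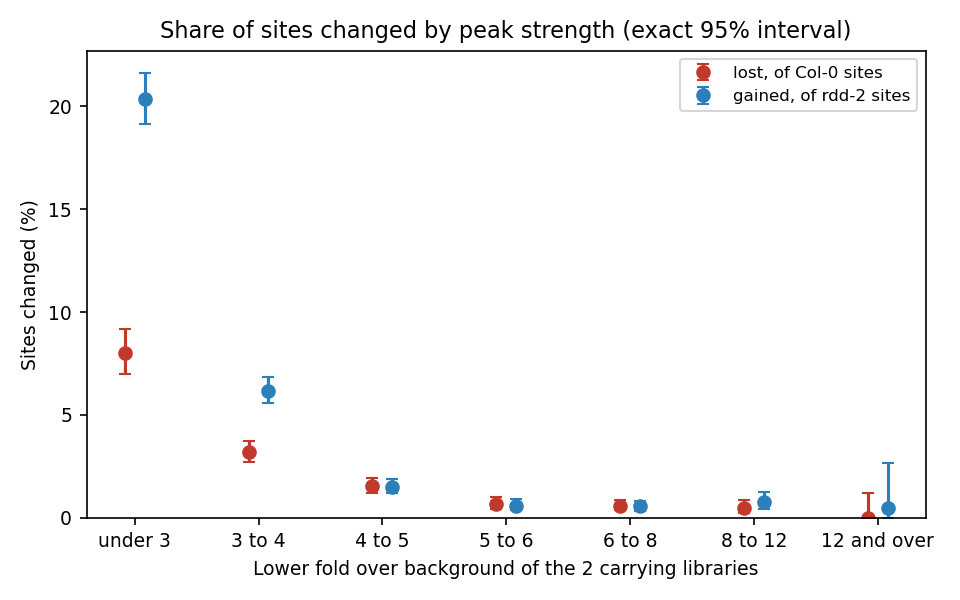
Share of sites changed (%, y axis) against the lower fold over background of the 2 carrying libraries (x axis, bins), with lost sites as a share of Col-0 sites in red and gained sites as a share of rdd-2 sites in blue. Bars are exact 95% binomial intervals and cover counting error only. Under 3 the shares are 8.02% and 20.4%, while from 5 upward both lie below 1%.

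Sites with a lower fold of at least 4.71, which is 2 times the highest detection limit of the 4 lists, are called strong. Among them losses and gains were even in number: 72 of 11106 strong Col-0 sites were lost, or 0.648%, and 72 of 10756 strong rdd-2 sites were gained, or 0.669%. They differed in form. A change can be a whole peak, where no peak of the other genotype touches either carrying peak, or the edge of a wider peak that both genotypes share. This distinction was added after the data were seen. Of the 72 strong lost sites 52 were whole peaks, or 72.2% (exact 95% interval 60.4 to 82.1), and of the 72 strong gained sites 7 were, or 9.72% (4.00 to 19.0). The median width of the carrying peaks was 394 bp at strong lost sites against 459 bp at all strong Col-0 sites. At strong gained sites it was 856 bp against 522 bp at all strong rdd-2 sites. The median peak width of whole lists was 326 and 338 bp in Col-0 and 344 and 365 bp in rdd-2, and its part in the gained edges was not tested. Among all changed sites, 393 of 479 lost and 1027 of 1317 gained sites were whole peaks.

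Sites were ranked by lower fold among those whose carrying peaks have their summit inside the window. The strongest lost site lay in the gene body of CRK40, which encodes a cysteine-rich receptor-like kinase, at chr4:2288848-2289148 (TAIR10 coordinates, as for all sites). Its folds were 12.7 and 11.1 in the Col-0 libraries, and neither rdd-2 library listed a peak there. In ros1-4 the folds were 12.5 and 12.8, as high as in the wild type, and neither drdd library had a peak. The site carried a peak in 24 of the other 26 libraries, so the 2 drdd libraries were the exceptions.

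CRK40 was the end of a longer blank stretch. The 4 consecutive Col-0 sites from chr4:2279109-2290112, over 11004 bp, were all lost in rdd-2, and none had a drdd peak. This run held the most neighbouring lost sites, though it was not the longest in bp. The upstream member at chr4:2279109-2279409, 9357 bp from the nearest protein-coding gene, reached 6.85 and 9.71 in Col-0, beside 7.80 and 8.10 in ros1-4. The next member, chr4:2279614-2279914, has the same Col-0 folds, as 1 wide peak per Col-0 library covers both sites. It had no peak in ros1-4. A further member in the gene body at chr4:2289812-2290112 reached 4.83 and 6.47 in Col-0, beside 8.86 and 7.89 in ros1-4. The nearest Col-0 sites beyond the run lay 44128 and 32355 bp away. The closest rdd-2 peaks were 34812 and 33298 bp from the CRK40 site, 1 distance per library. Peak lists hold no read coverage, so a closed site and a stretch without reads cannot be told apart.

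The next lost sites by fold lay away from gene ends. At AT5G28410 (chr5:10356585-10356885, 1449 bp from the gene) Col-0 had folds of 10.7 and 10.9 while ros1-4 had 9.75 and 9.24. At AT3G04480 (chr3:1198655-1198955, 1384 bp away) Col-0 had 10.65 and 10.6 while ros1-4 had 5.24 and 5.38. Neither site was listed in rdd-2 or drdd, and both were present in the other 24 libraries outside this comparison. A site at chr3:11207185-11207485, 2251 bp from any protein-coding gene, was listed with 11.3 and 9.71 in Col-0 and with no peak in rdd-2, ros1-4 or drdd. It carried a peak in all 10 shoot libraries of other mutants that have ROS1 and in 6 of the 12 other libraries that lack it.

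AT5G07175 was the one lost site with a peak in all 26 other libraries. Its site at chr5:2226158-2226458, 8 bp from the gene, reached 8.82 and 9.18 in Col-0. It also had 4.39 and 4.21 in ros1-4 and 3.08 and 4.46 in drdd. It is thus open in drdd, which lacks the same 3 enzymes and DME.

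The clock gene ELF3, a subunit of the evening complex that represses growth and flowering genes at night, also lost a site, 904 bp from the gene at chr2:11057890-11058190. The Col-0 folds were 7.11 and 7.81. Of the ros1-4 libraries only replicate 2 had a peak, with a fold of 4.05, and drdd had none. AT2G33830 showed the same pattern at chr2:14310703-14311003, with 8.59 and 7.34 in Col-0, 3.40 in ros1-4 replicate 2 and none in replicate 1 or drdd. The remaining members of the 12 strongest lost sites lay at AT5G04020, AT2G13985, AT3G54100, AT5G38300 and AT2G21920, with lower folds from 7.81 to 8.20.

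Of these 12 sites, 11 were whole peaks, 11 had no peak in either drdd library, and 12 had a peak in every one of the 10 other shoot libraries with ROS1. In ros1-4, 7 had a peak in both libraries, 2 in 1 and 3 in neither. By position 5 lay outside genes, 5 at gene ends and 2 in gene bodies. The Col-0 libraries are the same in every comparison with wild type, so states in ros1-4 and drdd are given here side by side and not as separate support.

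**Figure D2:**
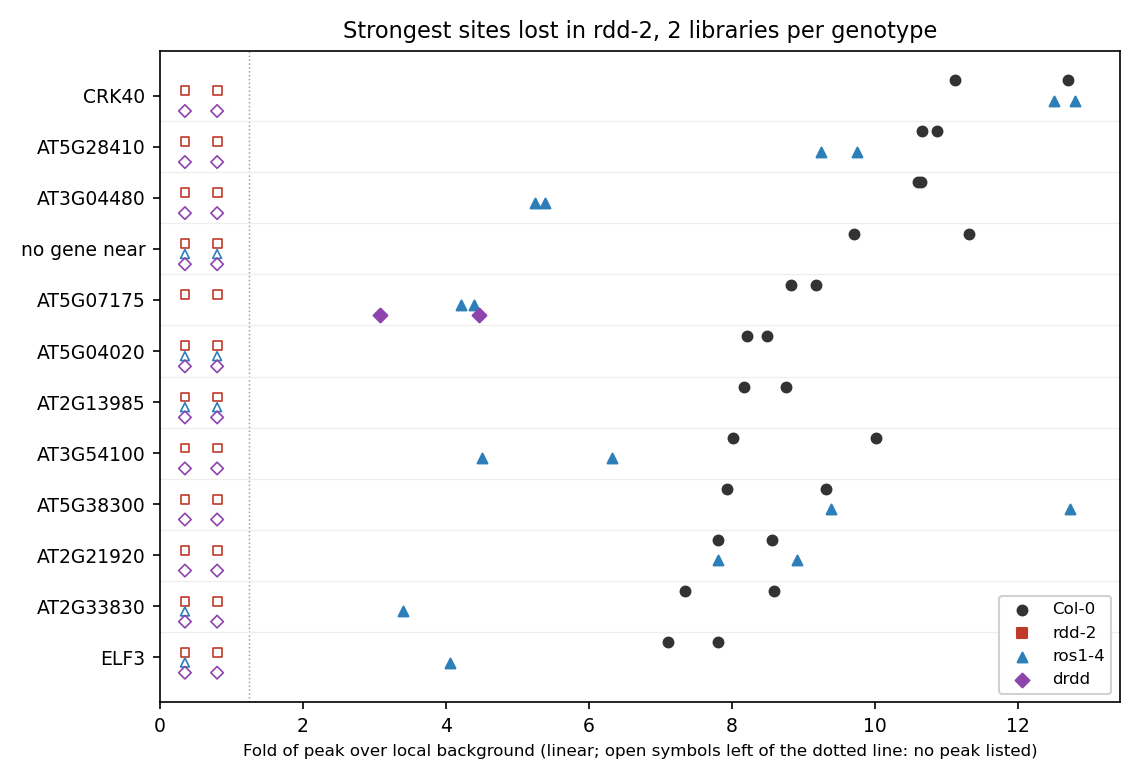
Fold over local background (x axis, linear) at the 12 strongest sites lost in rdd-2, each labelled with its closest protein-coding gene if one lies within 2000 bp (y axis), with 1 symbol per library and 2 libraries per genotype. Open symbols left of the dotted line stand for libraries with no peak listed. Col-0 folds run from 7.11 to 12.7, no rdd-2 peak is listed, drdd has peaks at AT5G07175 alone, and ros1-4 has peaks in both libraries at 7 sites.

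The libraries not used for the call give the state of these sites with and without ROS1. Strong lost sites carried a peak less often in libraries lacking ROS1 than in libraries of the same second mutation that have it, in all 4 such pairs of genotypes and with no overlap between libraries of a pair. In gcn5, which lacks a histone acetyltransferase, 97.2% and 97.2% of the 72 strong lost sites had a peak, against 66.7% and 72.2% in gcn5 ros1-4. In sdg2-4, which lacks a histone H3K4 methyltransferase, the shares were 81.9% and 77.8% against 59.7% and 59.7% in sdg2-4 ros1-4. In nrpd1-3, which lacks the largest subunit of RNA polymerase IV, they were 86.1% and 88.9% against 72.2% and 75.0%. The gap was smallest in hda6, which lacks a histone deacetylase, with 84.7% and 86.1% against 73.6% and 83.3%. In sites these are 61 and 62 against 53 and 60 of the 72, so this pair barely separates.

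Of all strong Col-0 sites, 98.0% to 99.7% had a peak in the 12 other libraries lacking ROS1 and 96.2% to 99.9% in the 10 other shoot libraries with it, which leaves this share little room to vary. Within pairs it was 99.9% and 99.9% in gcn5 against 99.35% and 99.5% in gcn5 ros1-4, and overlapped in nrpd1-3 (99.1% and 98.9% against 98.87% and 98.98%) and sdg2-4 (99.2% and 97.6% against 98.9% and 98.9%). In hda6 it was 99.1% and 96.2% against 99.4% and 99.7%. The background level was lower in the gcn5 ros1-4 libraries (16.2 and 25.2 fragments) than in gcn5 (25.9 and 32.5) and higher in hda6 ros1-4 (9.12 and 12.9) than in hda6 (7.03 and 6.68). For sdg2-4 it was 9.03 and 5.19 against 8.06 and 7.42 with ros1-4, and for nrpd1-3 it was 8.30 and 6.67 against 7.73 and 8.20. The sites were chosen for a pattern in Col-0 and rdd-2, so no p is given. The lowest shares were those of drdd, 23.6% and 19.4%, and of ros1-4, 33.3% and 43.1%. They were 100% and 93.1% in met1-9, which lacks the maintenance methyltransferase of CG sites and is labelled shoot, though its peak names say leaf. In Col-0 root they were 81.9% and 83.3%.

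Over all 479 lost sites the gap was less regular. The shares were 94.6% and 91.4% in gcn5 against 64.1% and 69.9% in gcn5 ros1-4, and 62.4% and 63.3% in nrpd1-3 against 47.0% and 49.3% in nrpd1-3 ros1-4. In hda6 the direction was opposite, 61.4% and 48.0% against 64.3% and 70.6% in hda6 ros1-4, where all Col-0 sites moved the same way, from 95.2% and 86.0% to 97.7% and 98.6%. In sdg2-4 the libraries overlapped, 61.2% and 45.9% against 50.3% and 51.6%. The part of depth in these shares was not tested.

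**Figure D3:**
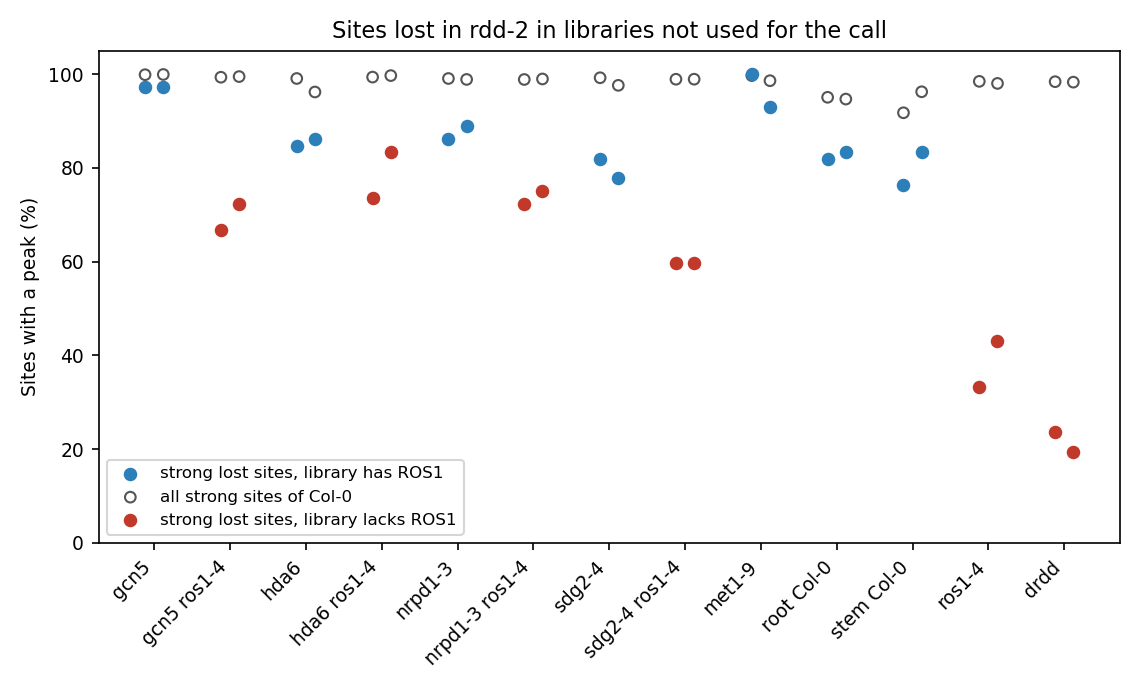
Share of sites with a peak (%, y axis) in each of the 26 libraries not used for the call (x axis, 2 points per group; groups other than root and stem are shoot). Filled points are the 72 strong sites lost in rdd-2, red where the library lacks ROS1 and blue where it has it, and open points are all 11106 strong Col-0 sites. The red points lie below the blue ones of the same second mutation in each pair, while the open points stay at 91.8% or above.

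At some lost sites the peak was missing from every library without ROS1. How often this holds over all Col-0 sites was not counted. There were 26 lost sites with no peak in any of the 12 other libraries lacking ROS1. The strongest by fold lay at STL2P, which encodes a SEC12-like protein of vesicle transport (chr2:215275-215575, folds of 10.5 and 10.8 in Col-0, a peak in 9 of the 10 other shoot libraries with ROS1). It was followed by RLP9, a receptor-like protein gene (chr1:21540448-21540748, 8.42 and 8.59), where only 4 of those 10 had a peak. Both are edges of wider peaks, as is the lost site of highest fold outside the ranking, at MEE14 (chr2:6922377-6922677, 10.8 and 11.97 in Col-0). AT4G01350, SDG21 of the SET domain methyltransferase family, and AT2G27240 came next as whole peaks, with lower folds of 4.67, 4.34 and 4.08.

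A clean split by ROS1, with a peak in all 10 other shoot libraries that have it and in none of the 12 that lack it, was seen at 4 lost sites. AT4G01350 (chr4:559571-559871) had Col-0 folds of 5.09 and 4.67. AT2G34540 (chr2:14553503-14553803) had 3.42 and 5.28. AT2G24880 (chr2:10591432-10591732) had 3.42 and 3.38, and a site 5314 bp from any protein-coding gene at chr2:5840373-5840673 had 3.82 and 3.38. All are whole peaks, and this pattern was picked out after the data were seen. How many of all Col-0 sites show the same split in these libraries was not counted.

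Other lost sites were present in ros1-4 and in every genotype combined with it, and absent from rdd-2 and drdd. A peak in all 26 libraries other than those of rdd-2 and drdd was found at 11 lost sites, another pattern chosen after the values were seen. They include the CRK40 site and its upstream neighbour, AT5G28410, AT3G04480, AT3G54100, ICME-LIKE2, AT1G64430, AT3G44510, AT1G10250, AT1G24250 and EXPA8, an expansin gene of wall loosening. All 11 are whole peaks. At ICME-LIKE2 (chr3:492706-493006) Col-0 had folds of 6.61 and 8.00 while ros1-4 had 5.54 and 7.78. At EXPA8 (chr2:16952302-16952602, 1747 bp from the gene) Col-0 had 4.03 and 4.48 while ros1-4 had 4.33 and 6.56. At AT1G64430 Col-0 had 5.40 and 5.07 while ros1-4 had 3.53 and 2.59, so the pattern is one of listed peaks and not of equal folds. The rdd-2 and drdd libraries also share the later sample numbers, so genotype and a separate submission cannot be told apart in this pattern. The cause of this pattern was not tested, and its share over all Col-0 sites was not counted.

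The reverse case is a site lost in rdd-2 but with a peak in both ros1-4 and both drdd libraries. It held 74 of the 479 lost sites, 57 of them whole peaks, and 4 of the 72 strong lost sites. For comparison, 232 of the 479 had no peak in either drdd library. The reverse case was led by AT5G07175. The ethylene response factor gene ERF104 came next (chr5:24766428-24766728), listed with 5.50 and 5.56 in Col-0. Folds there were 7.15 and 2.34 in ros1-4 and 7.11 and 6.51 in drdd. That site is the edge of a peak shared with rdd-2. AT1G27555, a site at chr2:6443792-6444092 and AT5G22280 followed, with lower folds of 4.87, 4.74 and 4.14.

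Lost sites lay farther from genes than other Col-0 sites. Since strand is not given, a gene end was taken as the stretch reaching 1000 bp out from, and 200 bp into, a protein-coding gene at its start or its stop. Of the 479 lost sites 60.8% lay at gene ends (exact 95% interval 56.2 to 65.2) against 78.5% of all Col-0 sites, and 31.9% (27.8 to 36.3) outside genes against 3118 of all 21808. Sites more than 2000 bp from any gene made up 14.8% of the lost and 5.73% of all. Windows of 100 kb with under 25% of gene sequence held 7.31% (5.14 to 10.0) of the lost sites and 2.38% of all. The strong sites gave the same order, with 31.9% of the 72 strong lost sites (21.4 to 44.0) outside genes against 10.3% of all strong Col-0 sites. These intervals cover counting error only, and neighbouring sites are not independent.

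Gained sites lay at gene ends less often than other rdd-2 sites. Gene bodies held 11.6% of gained sites (9.94 to 13.5) against 7.31% of all rdd-2 sites, while gene ends held 70.4% (67.8 to 72.8) against 78.2%. Outside genes the shares were 17.8% (15.7 to 19.9) and 14.26%. Gene-poor windows held 3.57% (2.63 to 4.72) against 2.25%. These comparisons with all rdd-2 sites are not matched for peak strength. Most gained sites were weak, and strong rdd-2 sites lay outside genes less often (9.75%) than all rdd-2 sites (14.26%). The part of peak strength in these shares was not tested. Of the 72 strong gained sites 23.6% (14.4 to 35.1) lay outside genes against 9.75% of all strong rdd-2 sites, and 16.7% (8.92 to 27.3) in gene bodies against 5.77%. Among them 8 lay in gene-poor windows, or 11.1% (4.92 to 20.7), against 2.45% of all strong rdd-2 sites. Only 7 of the 72 were whole peaks, so these shares mostly give the position of edges of peaks shared with Col-0. Of the 1027 gained sites that were whole peaks, 17.1% lay outside genes and 10.6% in gene bodies.

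**Figure D4:**
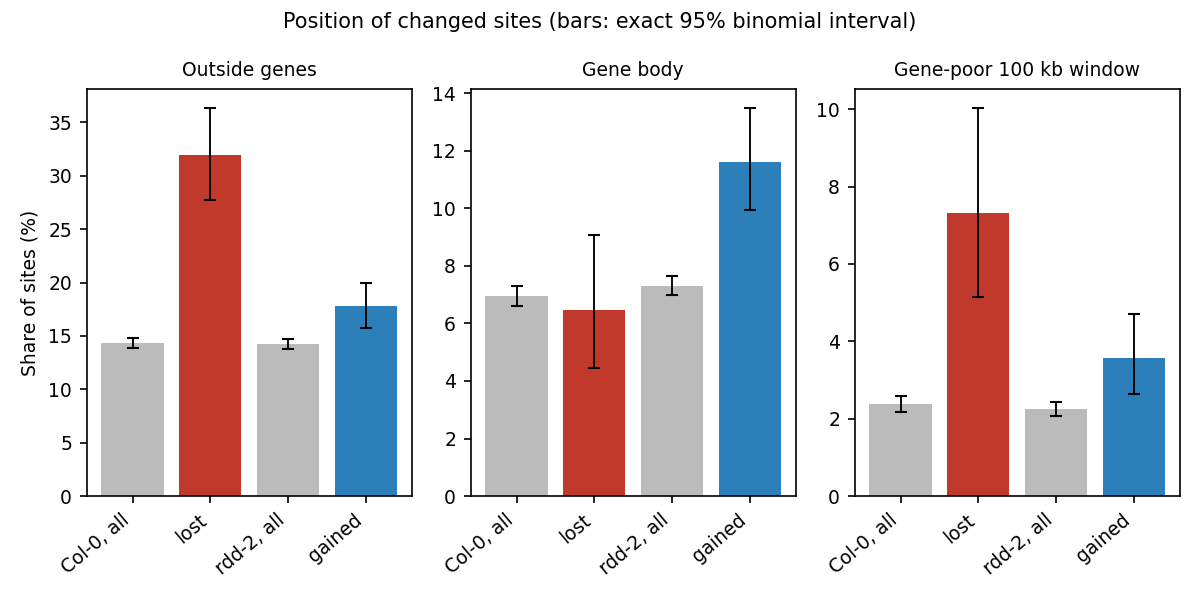
Share of sites (%, y axis) lying outside genes, in gene bodies and in gene-poor windows of 100 kb, for all 21808 Col-0 sites, the 479 lost sites, all 24163 rdd-2 sites and the 1317 gained sites. Outside genes means more than 1000 bp from a protein-coding gene and in no pseudogene; bars start at 0 and error bars are exact 95% binomial intervals. Lost sites are more often outside genes (31.9%, against 3118 of the 21808 Col-0 sites), and gained sites are more often in gene bodies (11.6% against 7.31%) and outside genes (17.8% against 14.26%) than all rdd-2 sites. The sets are not matched for peak strength, and changed sites are mostly weak.

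The 12 strongest gained sites with peak summits inside the window had lower folds from 4.41 to 6.04 in rdd-2. The first lay in the gene body of AT3G42990 (chr3:15030508-15030808), where rdd-2 had folds of 6.04 and 6.46, and drdd reached 8.85 and 8.09. It had no peak in Col-0 or ros1-4 and was listed in 4 of the other 26 libraries, 2 of them drdd and 2 met1-9. AT2G15000 (chr2:6482276-6482576) had 6.91 and 5.95 in rdd-2, 9.14 and 11.8 in ros1-4, and 8.65 and 7.26 in drdd, and was open in 21 of the 26. A site in sequence with no protein-coding gene in its 100 kb window, at chr5:11734726-11735026, had 6.13 and 5.81 in rdd-2 and 7.63 and 8.95 in ros1-4, with none in drdd. At similar folds its −log10 q in rdd-2 was 82.98 and 105.2, against 28.04 and 47.02 at AT3G42990. By the Poisson model behind these values its local background was higher. Whether it lies in a repeat was not screened.

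Many gained sites were open in further libraries. MAC5A, an RNA-binding subunit of the MOS4-associated splicing complex, gained a site at chr1:2262772-2263072 with folds of 5.565 and 5.13 in rdd-2. It also had 4.87 and 6.97 in ros1-4 and 3.28 and 5.08 in drdd, and a peak in 22 of the 26 libraries. MSL3, which encodes a plastid mechanosensitive channel, gained a site at chr1:21548034-21548334 with 4.51 and 4.81 in rdd-2. It was listed in neither ros1-4 library, in drdd replicate 1 alone with 2.49, and in all 10 other shoot libraries with ROS1. Of the 12 strongest gained sites 8 carried a peak in at least 17 of the 26 other libraries, 9 in both ros1-4 libraries and 7 in both drdd libraries. Over all 1317 gained sites the median was 17 of 26, and 423 were open in at least 20, so that at these sites the 2 Col-0 libraries are in the minority. Lost sites were much alike in this, with a median of 16 of 26 and 124 of the 479 open in at least 20. The median of strong lost sites was 19. A single gained site was listed in none of the 26.

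**Figure D5:**
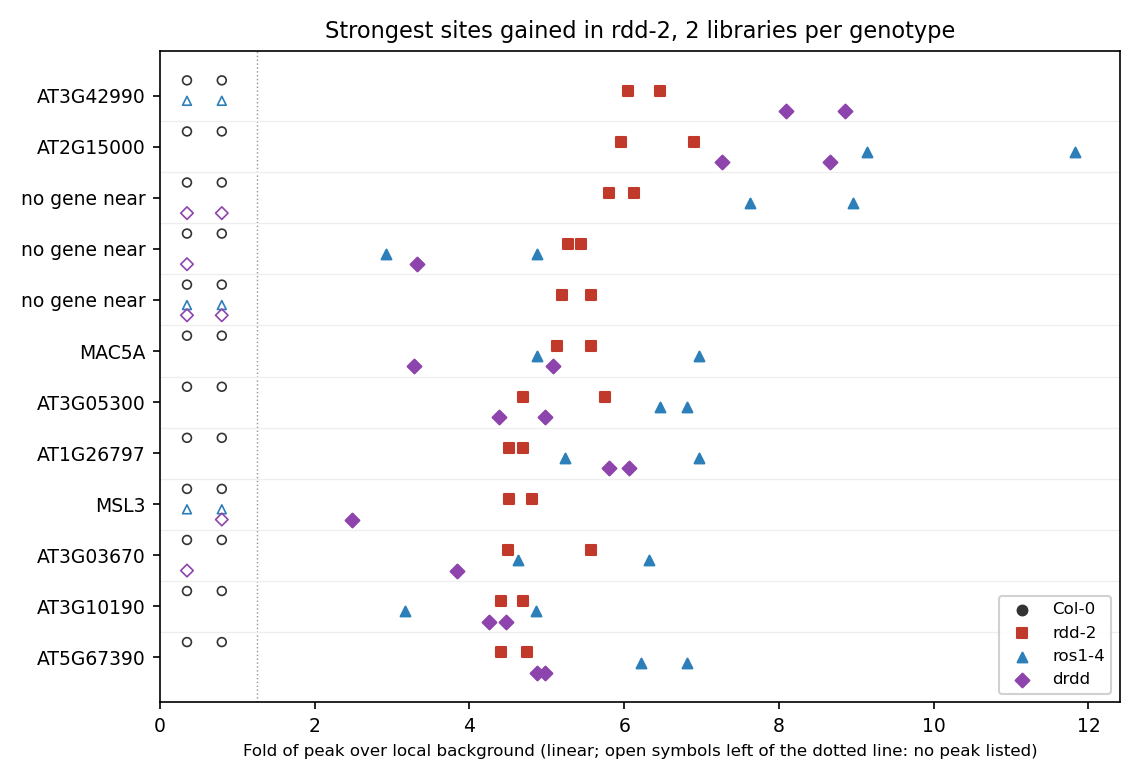
Fold over local background (x axis, linear) at the 12 strongest sites gained in rdd-2, each labelled with its closest protein-coding gene if one lies within 2000 bp (y axis), with 1 symbol per library and 2 libraries per genotype. Open symbols left of the dotted line stand for libraries with no peak listed. No Col-0 peak is listed, rdd-2 folds run from 4.41 to 6.91, and both ros1-4 libraries have a peak at 9 sites.

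The shares of gained sites in the other libraries were 41.2% and 44.95% in nrpd1-3 against 58.01% and 61.6% in nrpd1-3 ros1-4, 72.6% and 41.7% in sdg2-4 against 83.3% and 82.4% in sdg2-4 ros1-4, and 67.7% and 41.8% in hda6 against 78.97% and 85.5% in hda6 ros1-4. In gcn5 the libraries overlapped, with 87.8% and 84.8% against 83.4% and 89.6%. All rdd-2 sites moved in the same direction in the first 3 pairs, with 90.4% and 90.6% against 92.95% and 93.9% for nrpd1-3, 95.4% and 85.6% against 97.2% and 97.1% for sdg2-4, and 93.9% and 82.7% against 97.2% and 98.3% for hda6. The 72 strong gained sites gave another order. They were higher without ros1-4 in gcn5 (87.5% and 87.5% against 72.2% and 76.4%), lower in nrpd1-3 (34.7% and 34.7% against 55.6% and 48.6%), and overlapped in hda6 (55.6% and 72.2% against 58.3% and 81.9%) and sdg2-4 (63.9% and 44.4% against 65.3% and 63.9%). The part of list depth in these shares was not tested.

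The highest folds among gained sites belonged to edges of peaks shared with Col-0. AT5G32440 had 15.5 and 14.8 in rdd-2, AT2G19180 had 12.5 and 11.9, and AT5G11470 had 11.5 and 11.5. These folds belong to the whole peak and not to the 301 bp of the site. With no peak in ros1-4 or drdd, the strongest gained sites lay at SAC9, a phosphoinositide phosphatase gene (10.8 and 12.2 in rdd-2), and at MC9, a metacaspase gene (8.51 and 9.31). AT4G36470 and LRP1, a lateral root primordium gene, followed with lower folds of 8.18 and 5.24. All 4 are edges. The fifth, at chr4:3969083-3969383 in gene-poor sequence, is a whole peak with 5.565 and 5.19 in rdd-2. It was listed in none of the 12 other libraries lacking ROS1 and in 4 of the 10 other shoot libraries with it.

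Genes were assigned the sites within 2000 bp. Of 17097 protein-coding genes measured, 394 had a lost site, or 2.3%, and 1156 had a gained site, or 6.76%, and 20 had both. Among the genes with a lost site, 192 kept another site open in all 4 lists. Over 9 gene lists, 5 of 122 measured genes had a lost site, or 4.098%, and 16 a gained site, or 13.1%. The lost count was 10 without Col-0 replicate 1 and 11 without rdd-2 replicate 2. The gained count was 32 without Col-0 replicate 2, 10 with lists of equal length, 10 with merged peak intervals and 3 among strong sites.

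Of 7 measured genes of DNA demethylation, 0 had a lost and 0 a gained site, beside 2.3% and 6.76% of all genes. The gene-end site of ROS1 (chr2:15307771-15308071) was listed with 8.56 and 9.92 in Col-0, with 7.39 and 7.92 in rdd-2, and a peak in all 30 libraries. DML2 (chr3:3081023-3081323) had 3.69 and 4.33 in Col-0 beside 3.36 and 5.07 in rdd-2. Its second site (chr3:3088433-3088733) had 3.74 and 4.18 beside 2.275 and 3.08. DML3 had no peak in any of the 4 lists. The 4 sites of DME had a peak in all 4. A peak near a mutated gene does not show whether its product is made, so the genotype labels could not be checked from these files.

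Genes that set DNA methylation had 0 lost and 5 gained sites among 24 measured, where 5 of 24 is 20.8% beside 6.76% of all genes. They were CMT3, the methyltransferase of CHG sites, DRM2, the methyltransferase of the RNA-directed pathway, VIM1, which binds hemimethylated DNA, SUVH2, which helps to recruit RNA polymerase V, and the chromatin remodeller gene CHR42. CMT3 (chr1:26253553-26253853) had folds of 2.98 and 3.03 in rdd-2, 3.99 and 3.68 in ros1-4 and 3.59 in drdd replicate 1. DRM2 (chr5:4718627-4718927) had 2.89 and 3.12 in rdd-2, 4.21 and 3.36 in ros1-4 and 2.84 in drdd replicate 1. VIM1 had 3.55 and 2.91 in rdd-2, SUVH2 had 2.97 and 3.67, and CHR42 had 2.40 and 3.04. All 5 are whole peaks that lie under the fold of 4.71 for strong sites, and each had a peak in 14 to 17 of the other 26 libraries. With lists of equal length VIM1 and CHR42 were no longer called, and CHR42 was not called at a −log10 q of at least 5.

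The list of methylation-controlled loci had 2 lost and 1 gained site among 7 measured. RLP43, a receptor-like protein gene, lost a whole peak at chr3:10898851-10899151, 101 bp from the gene, with folds of 6.98 and 6.23 in Col-0 and none in rdd-2, ros1-4 or drdd. Its neighbouring site at chr3:10899486-10899786 stayed, with 6.32 and 6.65 in Col-0 and 6.04 and 6.71 in rdd-2. AT4G18650 lost the site at chr4:10266459-10266759 (7.37 and 7.39 in Col-0), the edge of a peak whose next site stayed open in rdd-2 with 6.14 and 7.03. RMG1, an NLR-type immune receptor gene and a known target of ROS1, kept the site at chr4:6810878-6811178, with 4.87 and 5.49 in Col-0 and 4.51 and 3.80 in rdd-2, where ros1-4 and drdd had no peak. Its gained site at chr4:6817044-6817344 was the edge of a peak.

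Lists for tissue and response are given beside the 2.3% of all genes with a lost site and the 6.76% with a gained one. Of 10 measured xylem and wall genes 1 had a lost site, XCP2, a xylem cysteine protease gene (chr1:7251537-7251837, 4.42 and 5.22 in Col-0). Its neighbouring site was open in all 30 libraries. Of 19 photosynthesis genes LHCB5, an antenna protein gene, had a lost site with 3.16 and 3.23 in Col-0. CAB1, another antenna gene, had a gained edge with 9.47 and 9.78 in rdd-2, and GLK2, a regulator of chloroplast development, a gained site with 2.42 and 2.715. Of 13 flowering genes SPL3 had a lost site, with 2.96 and 3.10 in Col-0, and SPL9 a gained one, with 2.95 and 2.76 in rdd-2; both encode SPL factors of phase change.

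Of 21 immune genes 0 had a lost and 2 a gained site, SARD1 (3.16 and 3.23 in rdd-2) and PBS3 (2.75 and 3.22), both of salicylic acid synthesis. Of 11 auxin response genes ATAUX2-11 had a gained edge (10.45 and 10.85) and IAA7 a gained site (2.15 and 2.26). Of 10 measured root markers 0 had a lost and 3 a gained site, or 30.0% gained: FRO2, the ferric reductase of iron uptake (2.49 and 3.55 in rdd-2), HAK5, a potassium transporter (2.30 and 2.03), and SHV2 of root hair growth (3.08 and 3.30), the last an edge. With lists of equal length, and at a −log10 q of at least 5, the calls at FRO2, HAK5, GLK2 and IAA7 were lost. The HAK5 folds lie under the 2.355 that a peak at background needed in Col-0 replicate 1. The count of root markers with a peak was also higher in the rdd-2 lists than in Col-0, as given above, and the part of depth or of root tissue in it was not tested.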

How the data were processed

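ATAC-seq was done on nuclei tagmented with Tn5, per the labels' protocols. Per the submitters' processing notes, FastQC, BWA, SAMtools, GATK and MACS2 were used with TAIR10; versions and settings are not given in the sources used here. The authors deposited 1 peak list per library, with the fold (a ratio of pileup to local background), −log10 p-value, −log10 q-value and a score of 10 times −log10 q.

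From these lists, summits of all 30 libraries were turned into windows of 301 bp, keeping the better of overlapping ones by rank of −log10 q. This gave 48484 windows, of which 42611 with a peak in both libraries of some group are the sites. A peak is present when it overlaps by at least 1 bp. Background levels were obtained by inverting the Poisson model behind fold and p-value. The most common level of each library was taken, with peaks within 2% of it. No test was run: presence or absence in 2 against 2 libraries cannot give an exact two-sided p below 0.33. Intervals are exact (Clopper-Pearson).

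The 12 strongest sites per direction with summits inside the window, genes of 9 lists (170 entries, all loci found, 162 by name), and sites by their state in other genotypes are named. Members and lists were chosen with earlier results of these data known. Gene names and positions come from a RefSeq table of TAIR10.1; 68.5% of site summits lay in no protein-coding gene by its coordinates, and fewer at each shift tried. It was used for names, distances and the position classes; its coordinates are not printed. For near-identical copies only chromosome 2 from 3.2 to 3.5 Mb and chromosome 3 from 14.1 to 14.3 Mb were checked. These stretches held 0 lost and 0 gained sites, and other repeats were not screened. Python 3.11.15, numpy 2.4.6, pandas 2.3.3 and scipy 1.17.1 were used.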

Additional observations from a re-analysis of the deposited data

How the results depend on the processing

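Alternatives were run for the counts of lost and gained sites, their position shares, the counts of list genes and the named sites. For these counts and shares, settings not given here moved each count by at most 1.5 times and each share by less than its counting interval. The settings run on the 81 named sites only remove peaks or libraries, so no call could reverse. The call was lost at 12 when a peak had to cover 151 bp of the window and at 23 with summits inside it. It was lost at 6 with lists of equal length, 5 at the stricter −log10 q, 34 at 2 detection limits and 21 as whole peaks. The lost count was 728 with lists of equal length and 72 with a fold of 2 detection limits, and the gained count 72 with the latter. Leaving out 1 library gave 612 to 1248 lost and 1770 to 3043 gained sites. The share of lost sites outside gene ends, 39.2% by the main definition, was 34.1% with lists of equal length, 18.8% with a gene end of 2000 bp, and 29.97% to 35.95% without 1 library. The gained share, 29.6%, was 40.3% at 2 detection limits, 15.2% with a gene end of 2000 bp, and 26.4% to 29.15% without 1 library. With a limit of 50% gene sequence, gene-poor windows held 30.3% of lost and 14.27% of gained sites, and at 2 detection limits 11.1% of gained. Without 1 library they held 5.53% to 6.54% of lost and 2.60% to 3.05% of gained sites. List genes with a lost site numbered 2 at 2 detection limits and 6 to 11 without 1 library. Those with a gained site numbered 10 with merged intervals, 10 with lists of equal length, 3 at 2 detection limits and 17 to 32 without 1 library. Fewer libraries per group loosen the call by construction; the cause of the other shifts was not tested.

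Whole peaks, an alternative chosen after the data were seen, gave 393 lost and 1027 gained sites. The replicate numbers do not pair the libraries: over 20427 sites the replicate differences of log2 fold had a correlation of 0.00706. With the replicate block the counts are 479 and 1317 by construction. A site at background could be listed only above a fold of 2.355 in Col-0 replicate 1 and 1.84 in rdd-2 replicate 2, so a weaker site was not detectable at that depth.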

Other observations

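Neighbouring Col-0 sites were lost together in few places. There were 402 lone lost sites, 32 pairs, 3 runs of 3 and the run of 4 at CRK40. A wide peak can cover neighbouring sites, so a run can count 1 peak more than once, as at CRK40. At AT2G33830 the sites chr2:14310275-14310575 and chr2:14310703-14311003 likewise had the same Col-0 folds, 8.59 and 7.34. The runs of 3 lay at AT1G51890 and AT1G51913 (14362 bp, 0 sites with a drdd peak), at SPL3 and AT2G33830 (6731 bp, 1 site with a drdd peak), and at FBS3 and AT4G05018 (2391 bp, 2 sites with a drdd peak). Gained sites fell into 1114 lone sites, 94 pairs and 5 runs of 3, among them 1 at LHW, a regulator of vascular development, and CLV3, the stem cell signal of the shoot meristem.

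Within 500 kb of ROS1, DML2 and DML3, 4 of 244, 3 of 207 and 1 of 250 Col-0 sites were lost, and 13 of 282, 15 of 237 and 16 of 277 rdd-2 sites were gained, beside 2.2% lost and 5.45% gained over all sites.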
